A study of Macaca mulatta with 12 samples.

Results

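Interleukins and their receptors were followed through the last days of the rhesus macaque corpus luteum, the short-lived ovarian gland that develops after ovulation and makes progesterone. The set comprised the 72 genes, of 14132 measured with a single gene symbol, whose symbol begins with IL and a digit. It held 35 ligands, 33 receptor chains, 3 antagonists or inhibitory ligands (IL1RN, IL36RN and IL37) and IL4I1, an amino acid oxidase that carries an IL symbol without being an interleukin. Where a gene had several probe sets on the array, the one with the highest mean over the 12 arrays was used. IL1R1, IL7R, IL18BP and IL32 are not analysed here.

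Corpora lutea came from female rhesus macaques with normal menstrual cycles and were frozen whole, so each array measured the mixed RNA of all cells of the gland. Mid-late corpora lutea were taken on days 10 to 12 after the LH surge, when the gland still makes progesterone, and served as the baseline. Late corpora lutea were taken on days 14 to 16 and were divided by serum progesterone into late functional (above 1.5 ng/ml) and late regressed (below 0.5 ng/ml). Each group held 4 arrays, labelled as biological replicates. No animal received a treatment, so the groups differ in day and in progesterone state, and the late regressed group was defined by the loss of hormone that marks functional regression. Values are log2 array signals as deposited, group values are mean ± SD with n = 4 arrays, and a difference is the first-named group's mean minus the other's on that log2 scale, with the SE from limma. A gene was called where limma's Benjamini-Hochberg adjusted p, taken over all 52707 tested probe sets, was below 0.05.

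Interleukins are secreted proteins that carry signals mainly between leukocytes, and between leukocytes and the tissue around them. They act through receptors built from a chain that binds 1 ligand or a few and a chain that several receptors share, such as IL2RG, IL10RB and IL6ST. IL-1 family receptors signal through MyD88, IRAK kinases and NF-kappa-B, and most other interleukin receptors through JAK kinases and STAT factors. Macrophages and other leukocytes enter the primate corpus luteum around its regression, and both IL-1 and anti-inflammatory interleukins have been studied in luteal tissue.

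Many of the ligands lay near the background of the array, whereas most receptors lay above it. The limit was set at 4.71, the 95th percentile of 674 array probe sets that carry the prefix NC and no gene symbol. A gene counted as near background where none of its 3 group means exceeded that limit. By this measure 23 of 35 ligands and 10 of 33 receptors were near background, as was IL36RN, 34 genes in all. The ligands near background included IL1A, IL3, IL4, IL5, IL6, IL7, IL12A, IL12B, IL13, IL15, IL17A, IL17F, IL21 and IL22. The receptors near background included IL1RAP, the shared accessory chain of IL-1 receptors, and IL2RA, the high-affinity IL-2 chain. For these genes a difference is one between low signals, and signal this close to background understates a change in RNA. Ligands above the limit in every group were IL10, IL16, IL17C, IL17D, IL18, IL27, IL34 and, by the platform annotation of its probe sets, IL2. A further 9 genes counted as above background had at least 1 group mean at or below the limit. These were IL1B, IL33 and IL4I1 in the mid-late and late functional groups, IL20RA in the mid-late group, IL25 in the mid-late and late regressed groups, IL5RA and IL23A in both late groups, and IL13RA2 and IL1RAPL1 in the late regressed group.

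The probe sets of 1 gene did not always give the same picture. The 72 genes had 118 probe sets, with several for 30 genes, and in 6 of these genes the probe sets' means lay over 2 log2 apart. IL2, the T cell growth factor, had means of 11.42 and 10.35 on 2 probe sets and of 2.91, near background, on another. The assignment of the bright probe sets to IL2 rests on the platform annotation, was not tested here and is in doubt given the low signal of the other probe set, so the IL2 values are those of the probe sets, and no IL2 probe set differed between groups at an adjusted p below 0.05. The brightest was 11.5 ± 0.28 in the mid-late, 11.79 ± 0.17 in the late functional and 10.95 ± 0.84 in the late regressed group. IL1R2, the decoy receptor that binds IL-1 without signalling, had means of 8.36, 7.15, 6.73 and 3.10. IL10 had means of 7.30 and 4.36, and IL11RA of 9.12 and 4.83. In 9 of the 30 genes, the probe sets differed in the sign of the late regressed minus mid-late difference.

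**Figure D1:**
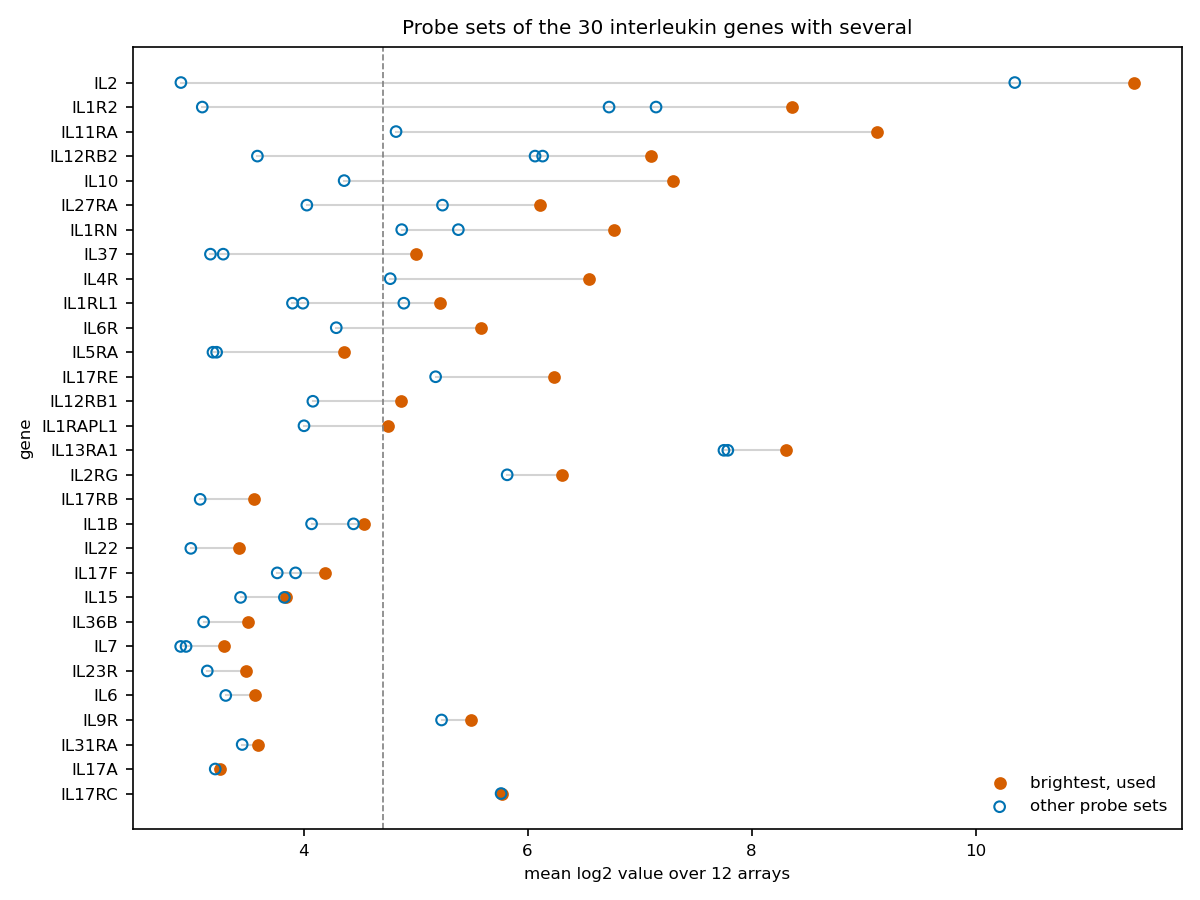
Mean log2 value over the 12 arrays (x axis) of each probe set of the 30 interleukin genes that have several (y axis), ordered by the distance between the highest and the lowest. Filled points mark the probe set used, open points the others, and the dashed line the background limit of 4.71; the IL2 probe sets run from 2.91 to 11.42.

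Late regressed arrays 2 and 3 stood apart from the other 10 on the first principal component of all probe sets, which held 40.8% of the variance. The excess of 3′ over 5′ control signal was 2.52 in late regressed array 2, against 0.46 to 0.70 in the other 11 arrays. The mean of the NC probe sets was 3.69 ± 0.05 in the mid-late group, 3.57 ± 0.04 in the late functional and 3.55 ± 0.05 in the late regressed group. Each late group was lower than the mid-late group (exact two-sided permutation test, p = 0.0286, the smallest that 4 against 4 arrays allow). The labelled tissue was present by its markers: 5 luteal genes of steroid synthesis and inhibin (STAR, HSD3B2, INHA, FDX1 and FDXR) averaged 11.95 to 12.30 in mid-late arrays, 11.37 to 11.88 in late functional arrays and 11.34, 9.66, 9.24 and 10.96 in late regressed arrays 1 to 4. In a list of 14 measured macrophage markers, 13 of them above background, the mean level ran from 6.59 to 8.37 in mid-late, 8.59 to 8.69 in late functional and 7.82 to 9.37 in late regressed arrays. A list of 6 measured T cell markers, 5 of them above background, lay between 4.59 and 5.09 in all arrays. In whole tissue, more cells of a type and more RNA per cell cannot be told apart.

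Between the late regressed and the mid-late group, 4 interleukin genes rose and 9 fell of 72. Of those that rose, 3 were receptor chains above background in every group, IL10RA, IL27RA and IL4R, by 1.54-fold to 2.66-fold, and the fourth was the near-background ligand IL15. Those that fell were the receptor chains IL5RA, IL1RAPL1 and IL13RA2, the ligands IL23A, IL27, IL17A, IL6 and IL12B, and the inhibitory ligand IL37, by 1.26-fold to 1.64-fold. Of these, only IL27 and IL37 were above the background limit in every group. IL17A, IL6 and IL12B were near background, and IL5RA, IL1RAPL1, IL13RA2 and IL23A had late regressed means under the limit. By role, 3 of 33 receptors rose and 3 fell, 1 of 35 ligands rose and 5 fell, and 1 of 3 antagonists fell. Among all 14132 genes, 13.1% were called in either direction, 7.6% higher and 5.51% lower, so the share of interleukin genes called lower was larger than that background and the share called higher was smaller. The NC probe sets gave 8.9% lower calls, 60 of 674, and no higher ones. The median difference was -0.10 over the 72 genes, -0.11 over ligands and -0.08 over receptors, against -0.02 over all genes. Of the 34 genes near background, 30 had a difference below 0.

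All 4 late regressed arrays lay above all mid-late arrays for 3 interleukin genes (background over all genes 10.8%) and below them for 16 (background 9.96%). The number of calls rested on single arrays: it was 6 without mid-late array 1, without mid-late array 2 or without late regressed array 3, and 8 without mid-late array 3 or late functional array 1. It was 20 without late regressed array 1 and 2 without late regressed arrays 2 and 3 together. The shares of all genes called in such fits are not given here. With renewed quantile normalization, 1 of 12 called genes was higher, in place of 4 of 13. With the per-array NC mean as a covariate none of the 13 was called, and that mean itself separated the groups. With a covariate for the excess of 3′ over 5′ control signal, IL10RA (1.23, adjusted p = 0.0674), IL27RA (1.20, 0.0675) and IL15 (0.92, 0.0542) lost their calls, and IL4R was the 1 higher call among 11. The same 3 genes lost their calls with array weights (0.088, 0.083 and 0.0712), and so did the fallen ligand IL12B (-0.29, 0.0823). With only the 2 groups in the fit, 4 genes were called, IL5RA, IL17A, IL23A and IL37, all lower. Renewed quantile normalization ended the calls of IL10RA (0.0579), IL27RA (0.0575), IL4R (0.0778) and IL12B (0.0547). Averaging the probe sets of a gene ended the calls of IL27RA (0.48, adjusted p = 0.0848), IL15 (0.78, 0.0539) and IL6 (-0.20, 0.148), and IL5RA (-0.23), IL17A (-0.27), IL37 (-0.22) and IL4R (0.40) kept theirs at differences over 1.5 times smaller.

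**Figure D2:**
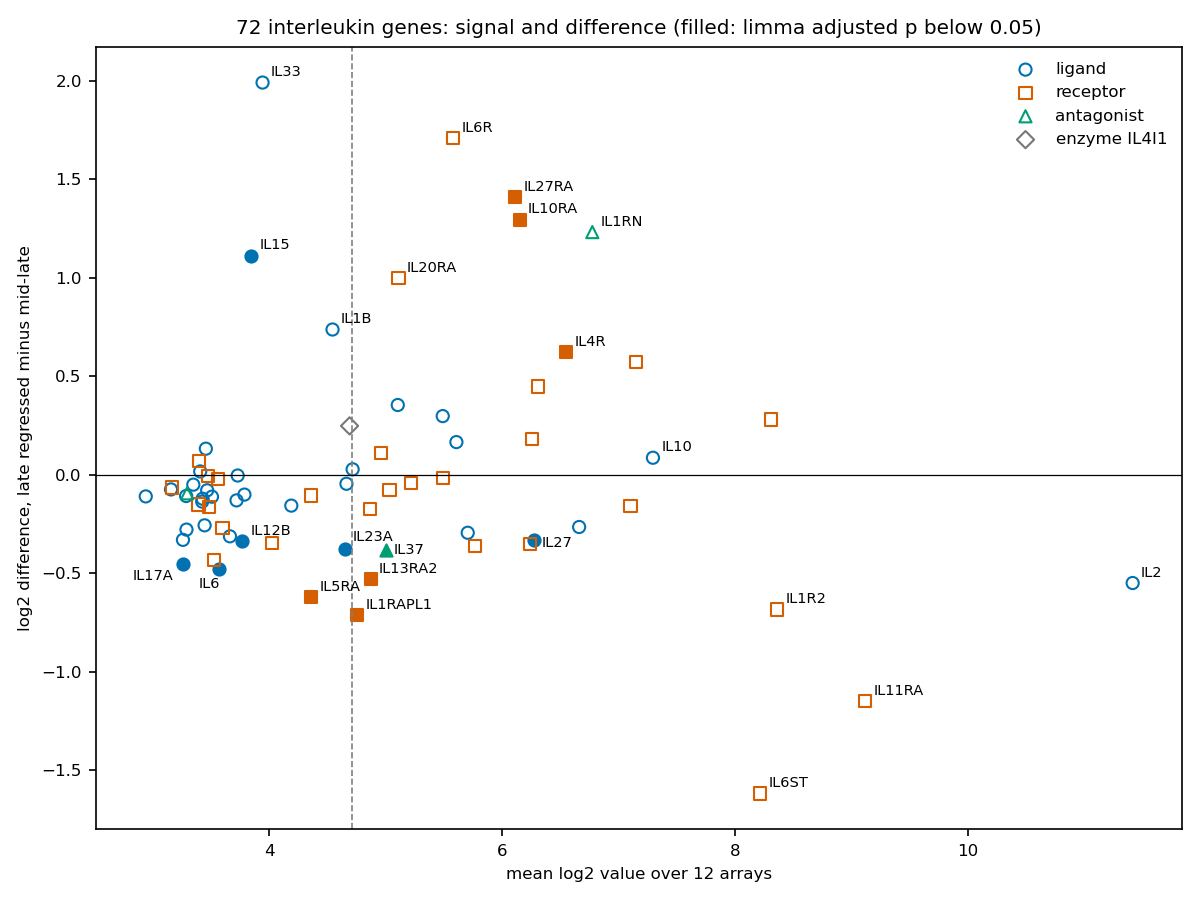
Difference of the late regressed from the mid-late group mean (y axis, log2) against the mean log2 value over 12 arrays (x axis), 1 point per interleukin gene, by role; filled points have a limma adjusted p below 0.05 and the dashed line is the background limit of 4.71. The 23 ligands near background sit left of the limit, most of them below 0. The widest difference in each direction, -1.62 for IL6ST and 1.99 for IL33, is an open point.

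IL10RA, IL27RA and IL4R were the receptor chains that rose. IL10RA, the chain that binds IL-10, gave 4.69, 5.31, 5.80 and 5.65 in mid-late arrays 1 to 4, 6.59, 6.44, 6.58 and 6.11 in late functional arrays and 6.53, 6.95, 7.57 and 5.58 in late regressed arrays. All late functional arrays lay above all mid-late arrays, whereas late regressed array 4 fell within the mid-late range. IL10RA rose 2.45-fold in the late regressed group (difference 1.29, SE 0.36, adjusted p = 0.0444), from 5.36 ± 0.49 to 6.66 ± 0.84, with 6.43 ± 0.22 in the late functional group. The call was kept without late regressed array 1 (adjusted p = 0.049) or 4 (0.012) and lost without any one of the other 10 arrays (0.0508 to 0.113), and without late regressed arrays 2 and 3 the difference was 0.69 (adjusted p = 0.249). The macrophage list was lowest, at 6.59, in mid-late array 1, where IL10RA was also lowest, and highest, at 9.37, in late regressed array 3, where IL10RA was highest. Its part in the result was not tested. IL10RB, the second chain of the IL-10 receptor, lay between 6.66 and 7.08 in mid-late and between 7.07 and 8.21 in late regressed arrays, with a difference of 0.57 that missed the threshold (adjusted p = 0.0951; 0.048 without late regressed array 1). IL10 itself was not called, with a difference of 0.09 (adjusted p = 0.765).

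IL27RA, the chain that pairs with IL6ST to form the IL-27 receptor, read 5.20, 5.51, 5.85 and 5.34 in mid-late arrays, 5.81, 6.02, 6.26 and 5.84 in late functional arrays and 6.22, 7.76, 7.78 and 5.77 in late regressed arrays. Late regressed arrays 2 and 3 were the high ones, and array 4 fell below the highest mid-late array. IL27RA rose 2.66-fold (difference 1.41, SE 0.40, adjusted p = 0.0457), from 5.47 ± 0.28 to 6.88 ± 1.04. The call was kept without late regressed array 1 (adjusted p = 0.025) or 4 (0.0146), and lost without any one of the other arrays (0.0553 to 0.11). Without late regressed arrays 2 and 3 the difference was 0.52 (adjusted p = 0.17), and its other probe sets gave 0.29 and -0.26, neither called.

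IL4R, the alpha chain shared by the receptors for IL-4 and IL-13, was 6.23, 6.24, 6.26 and 6.36 in mid-late arrays, 6.59, 6.44, 6.51 and 6.34 in late functional arrays and 6.63, 7.52, 6.75 and 6.68 in late regressed arrays. All late regressed arrays exceeded all arrays of both other groups, and array 2 was the high one. IL4R rose 1.54-fold over the mid-late group (difference 0.62, SE 0.17, adjusted p = 0.0385), from 6.27 ± 0.06 to 6.89 ± 0.42. Without late regressed array 2 the difference was 0.41 and the call was kept (adjusted p = 0.0179). The call was lost without late regressed array 3, any one mid-late array or late functional array 1, 2 or 3 (0.0531 to 0.0883), and without late regressed arrays 2 and 3 together the difference was 0.38 (adjusted p = 0.0591). The other IL4R probe set, with a mean of 4.77, gave 0.17 and was not called (adjusted p = 0.664). IL13RA1, which joins IL4R in the receptor for IL-13, was at 8.15 ± 0.33 in the mid-late and 8.43 ± 0.30 in the late regressed group (adjusted p = 0.322).

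Among the receptor chains that fell, IL5RA gave the difference that varied least between arrays. IL5RA, the alpha chain of the IL-5 receptor, carried mainly by eosinophils and basophils, read 4.74, 4.92, 4.84 and 4.70 in mid-late arrays. It read 4.00, 4.11, 4.11 and 4.15 in late functional and 4.17, 4.11, 4.20 and 4.24 in late regressed arrays. All 8 late arrays lay below all mid-late arrays, and both late group means were under the background limit. The difference was -0.62 (SE 0.07, adjusted p = 0.00548), 1.54-fold lower, in late regressed and -0.71 (adjusted p = 0.00503) in late functional corpora lutea. Both calls were kept in each of the 12 fits without 1 array, and without late regressed arrays 2 and 3 the late regressed difference was -0.60 (adjusted p = 0.0244). The other 2 IL5RA probe sets, at 3.22 and 3.19, gave -0.12 and 0.04. IL5, its ligand, was near background in all groups.

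IL13RA2, the chain that binds IL-13 and is known as a decoy, was 4.89, 4.96, 5.39 and 5.24 in mid-late arrays, 4.91, 5.10, 4.77 and 4.83 in late functional arrays and 4.78, 4.78, 4.47 and 4.34 in late regressed arrays. The late regressed arrays lay below the mid-late ones without overlap, with 2 of them close to the lowest mid-late array. It fell 1.44-fold (difference -0.53, SE 0.14, adjusted p = 0.0348), and the call was lost without mid-late array 2, 3 or 4, late functional array 1 or late regressed array 3 or 4 (0.051 to 0.0868). Without late regressed arrays 2 and 3 the difference was -0.56 (adjusted p = 0.102). IL1RAPL1, a relative of the IL-1 receptor accessory chain known mainly from neurons, was 5.30, 5.01, 5.16 and 4.87 in mid-late arrays, 4.96, 4.82, 4.83 and 4.62 in late functional arrays and 4.80, 4.19, 4.28 and 4.22 in late regressed arrays. All late regressed arrays lay below all mid-late arrays, and array 1 was closest to them. It fell 1.64-fold (difference -0.71, SE 0.14, adjusted p = 0.0149), was called in each fit without 1 array and gave -0.58 (adjusted p = 0.0973) without late regressed arrays 2 and 3. The other IL1RAPL1 probe set, near background with a mean of 4.00, gave -0.43 and was not called (adjusted p = 0.192). The late regressed means of both IL13RA2 and IL1RAPL1 were under the background limit.

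Of the ligands that fell, IL23A and IL12B encode the 2 chains of IL-23, and IL27 the p28 chain of IL-27. IL23A was 4.91, 4.86, 4.82 and 4.89 in mid-late arrays, 4.66, 4.61, 4.49 and 4.52 in late functional arrays and 4.62, 4.39, 4.43 and 4.53 in late regressed arrays. IL12B, near background, was 4.09, 4.04, 3.85 and 3.90 in mid-late arrays, 3.78, 3.71, 3.55 and 3.74 in late functional arrays and 3.76, 3.5, 3.64 and 3.63 in late regressed arrays. For both, every array of either late group lay below every mid-late array. IL23A fell 1.30-fold (difference -0.38, SE 0.07, adjusted p = 0.0115) and was called in each fit without 1 array. IL12B fell 1.26-fold (difference -0.34, SE 0.08, adjusted p = 0.0284), and the call was lost without mid-late array 1 or 2 or late regressed array 2 or 3 (0.0592 to 0.0753). IL27 was 6.36, 6.58, 6.36 and 6.42 in mid-late arrays, 6.36, 6.22, 6.35 and 6.20 in late functional arrays and 6.18, 6.0, 6.07 and 6.13 in late regressed arrays, where all 4 lay below the arrays of both other groups. It fell 1.26-fold (difference -0.33, SE 0.08, adjusted p = 0.0226), and the call was lost without mid-late array 2 or late regressed array 3 (0.0593 and 0.0562). None of the 3 was called without late regressed arrays 2 and 3, where the differences were -0.30, -0.27 and -0.27 (adjusted p = 0.0848, 0.162 and 0.143).

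IL6 and IL17A, inflammatory ligands, were both near background in all groups. IL17A was 3.60, 3.48, 3.45 and 3.49 in mid-late arrays, 3.15, 3.10, 3.37 and 3.19 in late functional arrays and 3.12, 3.08, 2.98 and 3.05 in late regressed arrays. IL6 was 3.96, 3.86, 3.92 and 3.72 in mid-late arrays, 3.44, 3.60, 3.40 and 3.38 in late functional arrays and 3.57, 3.23, 3.56 and 3.20 in late regressed arrays. All late arrays of both groups lay below all mid-late arrays for both genes, within the range of signals where the NC probe sets also lay lower in the late groups. IL17A differed by -0.45 (SE 0.07, adjusted p = 0.00873) and was called in each fit without 1 array; IL6 differed by -0.48 (SE 0.10, adjusted p = 0.0191) and lost its call without mid-late array 1 (0.0531). Their second probe sets gave -0.09 for IL17A and 0.09 for IL6. Without late regressed arrays 2 and 3 the differences were -0.42 (adjusted p = 0.0505) and -0.48 (adjusted p = 0.0639).

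IL15 was the ligand that rose. IL15, which supports natural killer and memory T cells and is presented on IL15RA, was 2.97, 3.22, 3.46 and 3.19 in mid-late arrays, 3.89, 3.92, 4.10 and 4.10 in late functional arrays and 3.47, 5.13, 4.86 and 3.83 in late regressed arrays. Every late array was above every mid-late array, late regressed array 1 by the least, and only late regressed arrays 2 and 3 exceeded the background limit. It rose 2.16-fold (difference 1.11, SE 0.30, adjusted p = 0.0409). The call was kept without late functional array 4 or late regressed array 1 or 4 and lost without any one of the other 9 (0.0579 to 0.104), and without late regressed arrays 2 and 3 the difference was 0.44 (adjusted p = 0.128). Its other probe sets gave 0.72 and 0.50, in the same direction and not called (adjusted p = 0.151 and 0.0539). IL15RA was at 4.73 ± 0.22 in the mid-late, 5.31 ± 0.26 in the late functional and 4.84 ± 0.40 in the late regressed group.

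IL37, an inhibitory member of the IL-1 family, was 5.28, 5.31, 5.28 and 5.21 in mid-late arrays, 4.87, 4.65, 4.82 and 4.99 in late functional arrays and 5.03, 4.96, 4.74 and 4.85 in late regressed arrays. All 8 late arrays were below all mid-late arrays. It fell 1.30-fold in late regressed corpora lutea (difference -0.38, SE 0.09, adjusted p = 0.0219), with the call lost without mid-late array 1 or 2 or late regressed array 3 (0.0534 to 0.0587), and without late regressed arrays 2 and 3 the difference was -0.34 (adjusted p = 0.106). A second IL37 probe set, near background with a mean of 3.28, was also called, at -0.28 (adjusted p = 0.0282). Its name differs from that of the probe set used only in the suffix, so the calls may not be independent. The last, also near background, gave 0.00.

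**Figure D3:**
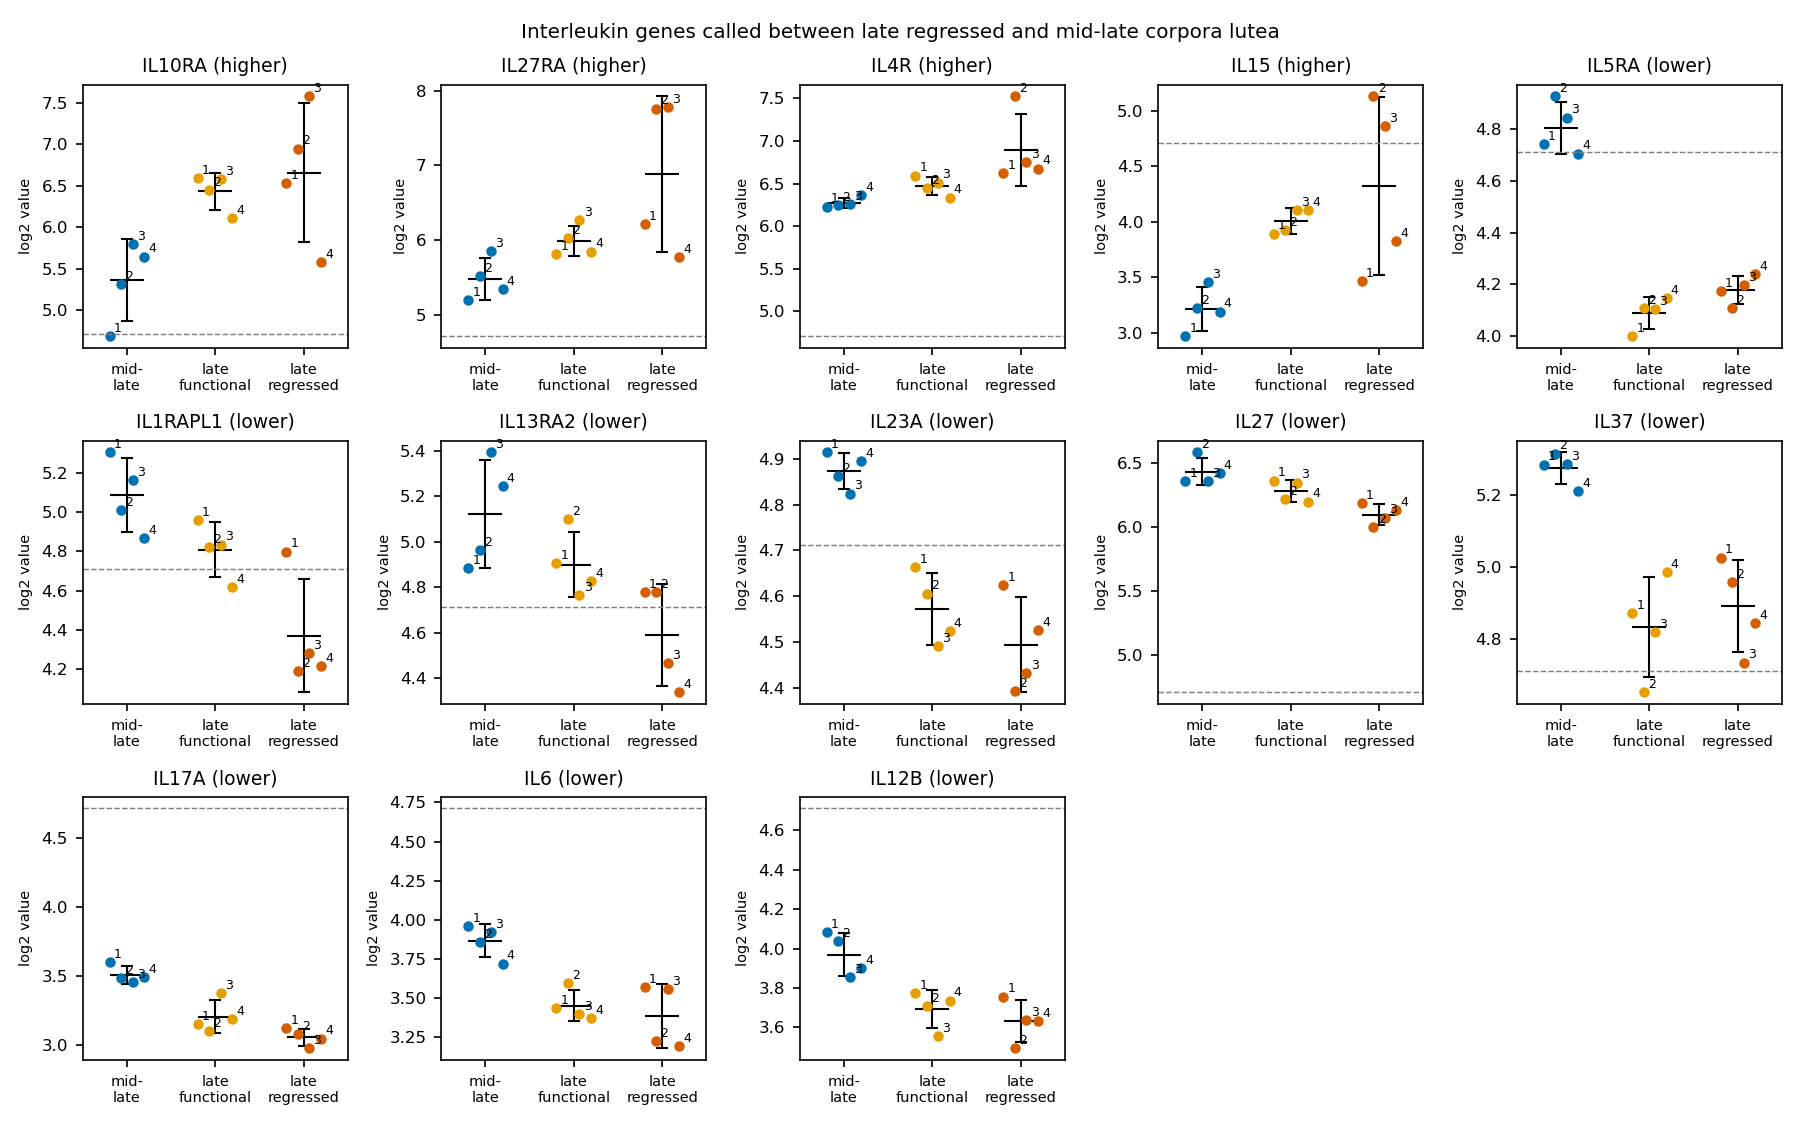
Log2 value in each of the 12 arrays (y axis) of the 13 interleukin genes called for late regressed against mid-late, 1 panel per gene, with group means as bars. The 4 genes that rose include arrays far above the rest, such as late regressed arrays 2 and 3 for IL27RA at 7.76 and 7.78, whereas both late groups of IL5RA, between 4.00 and 4.24, lie under the lowest mid-late array at 4.70.

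The widest differences between the group means, those of IL33, IL6R and IL6ST, were not called. In these genes the late regressed arrays differed from each other by several log2. IL33, an alarmin of the IL-1 family held in the nuclei of endothelial and stromal cells, was 3.18, 7.21, 7.06 and 3.42 in late regressed arrays 1 to 4 and between 2.87 and 3.59 in the other 8 arrays. Late regressed arrays 2 and 3 were thus high and arrays 1 and 4 lay in the range of the other groups. The difference of 1.99 had an adjusted p of 0.126, was 0.07 without late regressed arrays 2 and 3 and 2.67 without late regressed array 1 (adjusted p = 0.0329). The endothelial marker list differed from its mid-late mean by 0.36, 0.43, 0.06 and 0.13 in late regressed arrays 1 to 4 and the fibroblast list by 0.51, 0.46, 0.53 and 0.53. The part of such cells in the IL33 values was not tested.

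IL6R, which binds IL-6, followed the same arrays, at 5.0, 8.08, 7.86 and 5.16 in the late regressed group against 4.54 to 5.02 in mid-late and 5.16 to 5.62 in late functional arrays. Its difference of 1.71 (adjusted p = 0.0912) was 0.27 without late regressed arrays 2 and 3. It passed the threshold without late regressed array 1 (2.22, adjusted p = 0.0242) or 4 (2.16, 0.0398). IL6ST, the signalling chain gp130 that IL-6, IL-11 and IL-27 receptors share, ran the other way, at 8.65, 4.89, 7.85 and 7.57 in late regressed arrays and 8.44 to 9.19 in mid-late arrays. Array 2, whose 3′ to 5′ difference was the highest, was the low one. The difference of -1.62 (adjusted p = 0.107) was -0.84 (adjusted p = 0.092) without late regressed array 2 and -2.09 (adjusted p = 0.0365) without array 1. IL11RA, which binds IL-11, was 9.72, 7.07, 6.44 and 9.49 in late regressed arrays and 9.09 to 9.55 in mid-late arrays, with a difference of -1.15 (adjusted p = 0.226) that was 0.28 without arrays 2 and 3.

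IL1RN, the IL-1 receptor antagonist, was 5.49, 8.52, 8.93 and 6.53 in late regressed, 5.44 to 6.62 in mid-late and 6.45 to 7.0 in late functional arrays. The difference of 1.23 (adjusted p = 0.209) was -0.12 without late regressed arrays 2 and 3 and 1.86 without array 1 (adjusted p = 0.0294). IL1RL1, the receptor for IL-33, was high in late regressed array 2 at 7.18 and in mid-late array 2 at 6.77, with a difference of -0.04 (adjusted p = 0.974). IL1B, a main inflammatory ligand, was 4.48, 4.45, 6.26 and 4.50 in late regressed and 4.06 to 4.28 in mid-late arrays. Without late regressed array 3, the only array of the 12 above the background limit for this probe set, its difference was 0.29 in place of 0.74 (adjusted p = 0.0719 and 0.158). The other IL1B probe sets gave 0.75 (adjusted p = 0.302) and 2.15 (0.104), the latter with an SD of 2.22 in the late regressed group, and the mean over the 3 was 1.21. Late regressed array 3 was also the highest of the 12 arrays for the lists of macrophage (9.37), neutrophil (4.98, with 2 of 6 genes above background) and dendritic cell markers (5.58, with 4 of 7 above background). In the dendritic list CD83 alone was called (1.99, adjusted p = 0.0411), and CLEC9A, XCR1 and CCR7 had differences below 0. In the macrophage list CYBB alone was called (2.56, adjusted p = 0.0472), and C1QA, C1QB, C1QC and ITGAM had differences below 0. In the neutrophil list S100A8 alone was called (2.40, adjusted p = 0.0233). CSF3R, MPO, ELANE and S100A12, all near background, had differences below 0. The part of such cells in the IL1B values was not tested.

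An SD over 1 log2 in the late regressed group was found for 7 of the 72 genes, IL1RL1, IL1RN, IL6R, IL6ST, IL11RA, IL27RA and IL33, a share of 9.72% against 2.9% of all genes. No interleukin gene reached that SD in the mid-late or the late functional group, where only 44 of all 14132 genes did so in each. The late regressed SD exceeded the mid-late SD for 45 of the 72 genes, or 62.5%, against 69.6% of all genes.

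**Figure D4:**
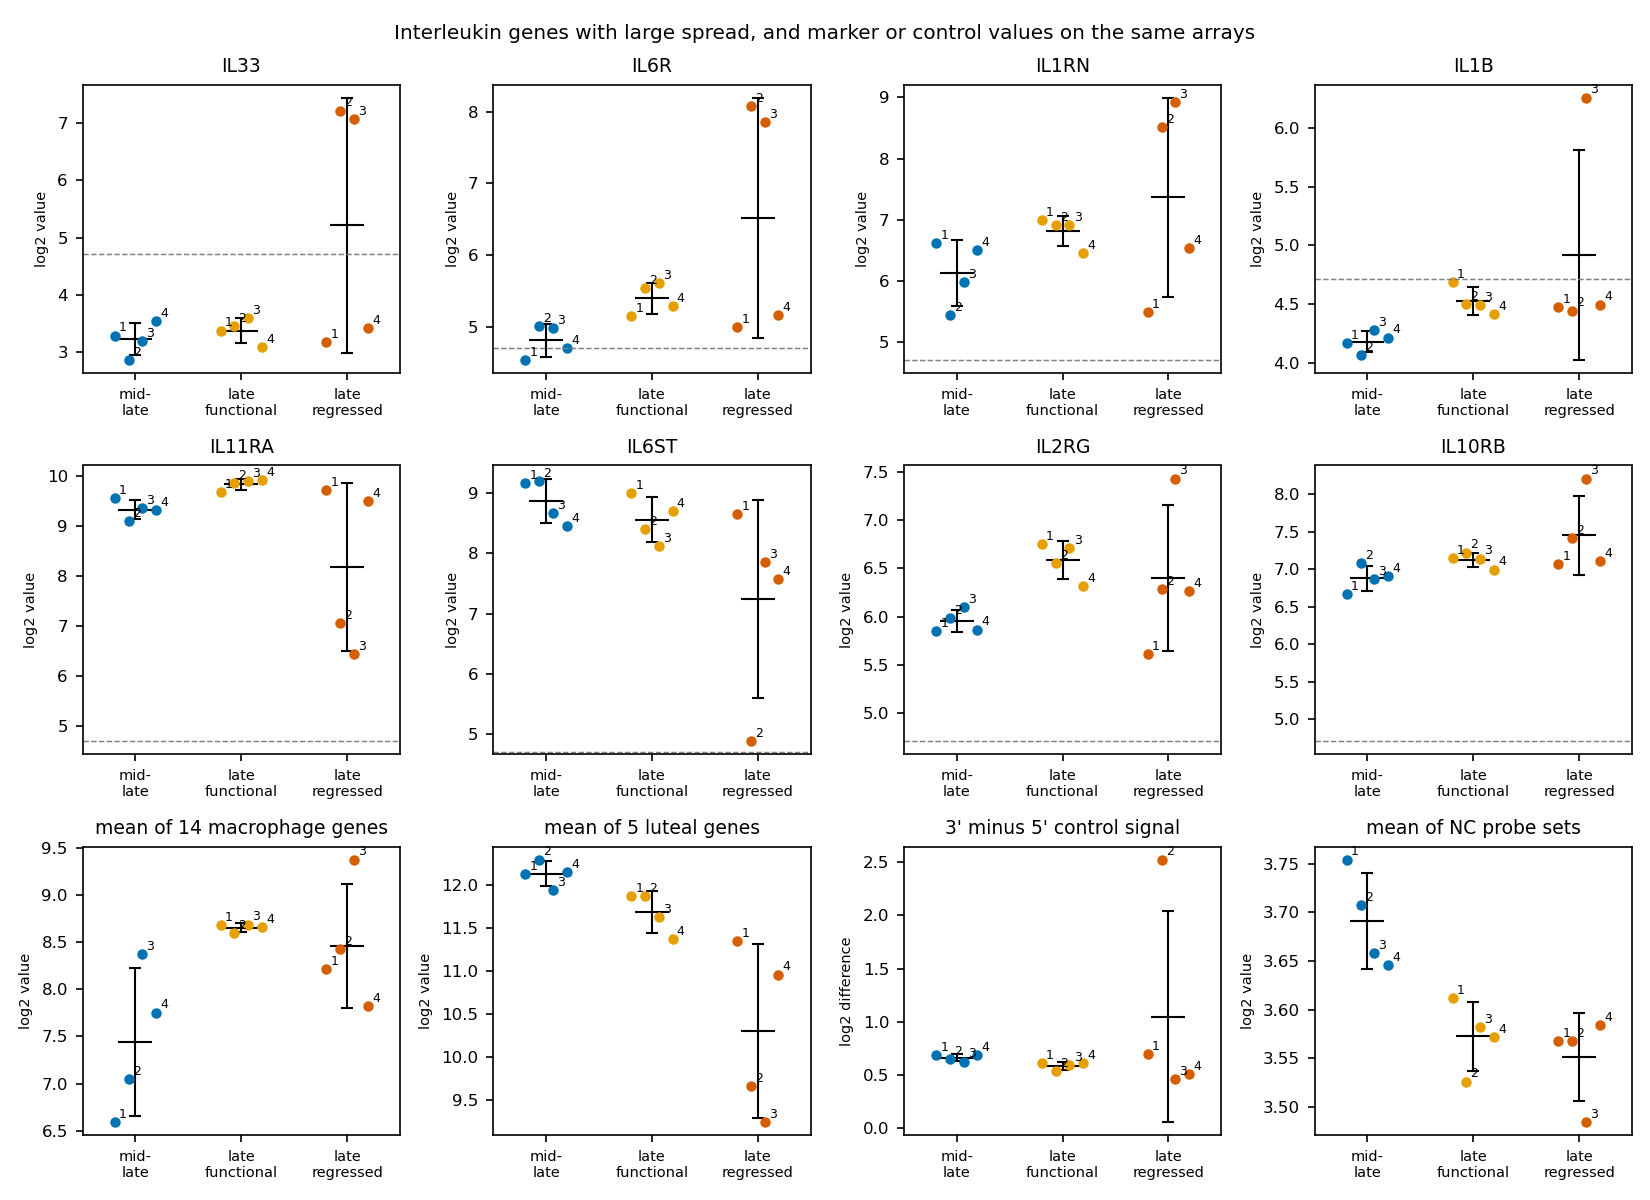
Log2 values by array (y axis) for 8 chosen interleukin genes, and, in the bottom row, macrophage and luteal list means, the 3′ to 5′ difference and the NC mean. Numbers mark arrays, and bars are mean ± SD (n = 4). IL1RL1 and IL27RA, whose late regressed SD was over 1 log2, are not shown, whereas IL1B, IL2RG and IL10RB had an SD below 1. Late regressed arrays 2 and 3 stand above the rest for IL33 (7.21 and 7.06) and IL6R (8.08 and 7.86) and below them for IL11RA (7.07 and 6.44). IL6ST is lowest in array 2 alone at 4.89, and IL1B, IL2RG and IL10RB are highest in array 3.

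IL1R2, the decoy receptor for IL-1, was low in other late regressed arrays. It was 8.47, 8.60, 8.91 and 8.76 in mid-late arrays, 8.58, 8.60, 8.53 and 7.87 in late functional arrays and 7.64, 8.05, 8.63 and 7.67 in late regressed arrays, of which array 3 alone lay within the mid-late range. The difference of -0.69 missed the threshold (adjusted p = 0.071). It was -0.90 without late regressed array 3 (adjusted p = 0.0315) and -1.03 without arrays 2 and 3 (adjusted p = 0.0378), in a fit where IL5RA was the other gene called. The probe set of IL1R2 with a mean of 6.73 was called at -0.72 (adjusted p = 0.0259), and the one with a mean of 7.15 gave -0.08.

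Other ligands and receptors of the inflammatory axes gave values that missed the threshold. IL18, which is processed with IL-1 beta, was at 5.33 ± 0.69 in the mid-late and 5.63 ± 0.69 in the late regressed group (adjusted p = 0.611). IL34, a ligand of the CSF1 receptor, was at 5.54 ± 0.08 and 5.71 ± 0.40 (adjusted p = 0.528). IL16, a chemoattractant for CD4 cells, was at 5.88 ± 0.22 and 5.58 ± 0.11, with a difference of -0.30 (adjusted p = 0.0813; 0.0498 without mid-late array 2). IL17C and the receptor chain it binds, IL17RE, differed by -0.27 and -0.35 (adjusted p = 0.0559 and 0.0576). IL17C passed the threshold without late regressed array 2 (0.0457) and IL17RE without mid-late array 4 (0.0298). IL17RA, the chain shared by IL-17 receptors, differed by 0.18 (adjusted p = 0.568), and IL17RC by -0.36 (adjusted p = 0.161), or -0.54 without late regressed array 1 (adjusted p = 0.0134). IL2RG, the common gamma chain, differed by 0.45 (adjusted p = 0.321) and IL7, near background, by -0.28 (adjusted p = 0.104). IL25, a ligand of the IL-17 family linked to type 2 responses, was close to the background limit and differed by 0.03 (adjusted p = 0.867). IL1A and IL1RAP, both near background, differed by 0.13 and -0.11 (adjusted p = 0.463 and 0.694).

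Late functional and mid-late corpora lutea, which differ in day while both still made progesterone, were separated by 2 interleukin genes, both lower. IL5RA differed by -0.71 as given above, and IL37 by -0.44 (SE 0.09, adjusted p = 0.0439), 1.36-fold lower. Over all genes 1.17% were called, 0.58% higher and 0.594% lower. IL37 kept its call without late regressed array 1, 2 or 3 and lost it without any one of the other 9 arrays (0.0516 to 0.132). Groups without overlap were more frequent than calls. All late functional arrays lay above all mid-late arrays for 7 genes, against 10.4% of all genes: the receptor chains IL2RG, IL6R, IL10RA, IL11RA and IL15RA and the ligands IL1B and IL15. They lay below for 10 genes, against 8.5% of all genes: IL5RA, IL20RB, IL31RA, IL6, IL7, IL12B, IL17A, IL17F, IL23A and IL37, of which 7 were near background.

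The receptor chains without overlap included IL10RA, which differed by 1.07 (adjusted p = 0.15), and IL2RG, at 5.85, 5.98, 6.10 and 5.87 in mid-late and 6.76, 6.55, 6.71 and 6.32 in late functional arrays (difference 0.64, adjusted p = 0.261). IL15RA was 4.90, 4.45, 4.90 and 4.66 in mid-late and 5.35, 5.46, 5.5 and 4.93 in late functional arrays (difference 0.58, adjusted p = 0.144). IL11RA differed by 0.51 (adjusted p = 0.695). The macrophage list lay higher in all late functional arrays (8.59 to 8.69) than in all mid-late arrays (6.59 to 8.37); its part in these values was not tested. The fit shares its spread with the late regressed arrays: without late regressed arrays 2 and 3, 10 interleukin genes were called, 6 of them higher, among them IL11RA (adjusted p = 0.0293) and IL1B (0.0389). The share of all genes called in that fit is not given here, so the count does not set interleukin genes apart.

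Between late regressed and late functional corpora lutea, which share the days of collection and differ in progesterone, no interleukin gene was called, against 0.00708% of all genes. At an unadjusted p below 0.05, limma gave 5 higher and 7 lower, where the background over all genes was 8.34% higher and 7.78% lower. The smallest adjusted p was 0.236, for IL10. IL10, the main anti-inflammatory ligand, read 7.56, 6.99, 7.55 and 7.64 in mid-late arrays, 6.86, 7.01, 6.81 and 7.03 in late functional arrays and 7.18, 7.69, 7.35 and 7.86 in late regressed arrays. Its late functional arrays lay below all late regressed arrays, and mid-late array 2 lay among them. The difference was 0.59, and -0.51 between late functional and mid-late (adjusted p = 0.141). The second IL10 probe set, near background, gave 0.22 and -0.06. Without overlap between the groups, 4 genes lay higher, IL10, IL4R (0.42), IL17F and IL20RB, against 2.63% of all genes, and 2 lay lower, IL27 (-0.18) and IL12A, against 3.28%. Of these, IL17F, IL20RB and IL12A were near background in all groups, and the second IL4R probe set gave -0.04. Without late regressed array 1, 2 genes were called, IL17RC (-0.67, adjusted p = 0.0221) and IL1RAPL1 (-0.58, adjusted p = 0.0344). This comparison and the one of late regressed with mid-late share the late regressed arrays.

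Over the 3 groups together, limma's moderated F test called 6 interleukin genes, against 6.65% of all genes: IL5RA (adjusted p = 0.00555), IL17A (0.0203), IL23A (0.0259), IL37 (0.0271), IL1RAPL1 (0.0365) and IL6 (0.0371). In each of the 6 the mid-late mean was the highest. The count was 1 without mid-late array 1 or 2, 2 without mid-late array 3, 3 without late functional array 3 and 11 without late regressed array 1.

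**Figure D5:**
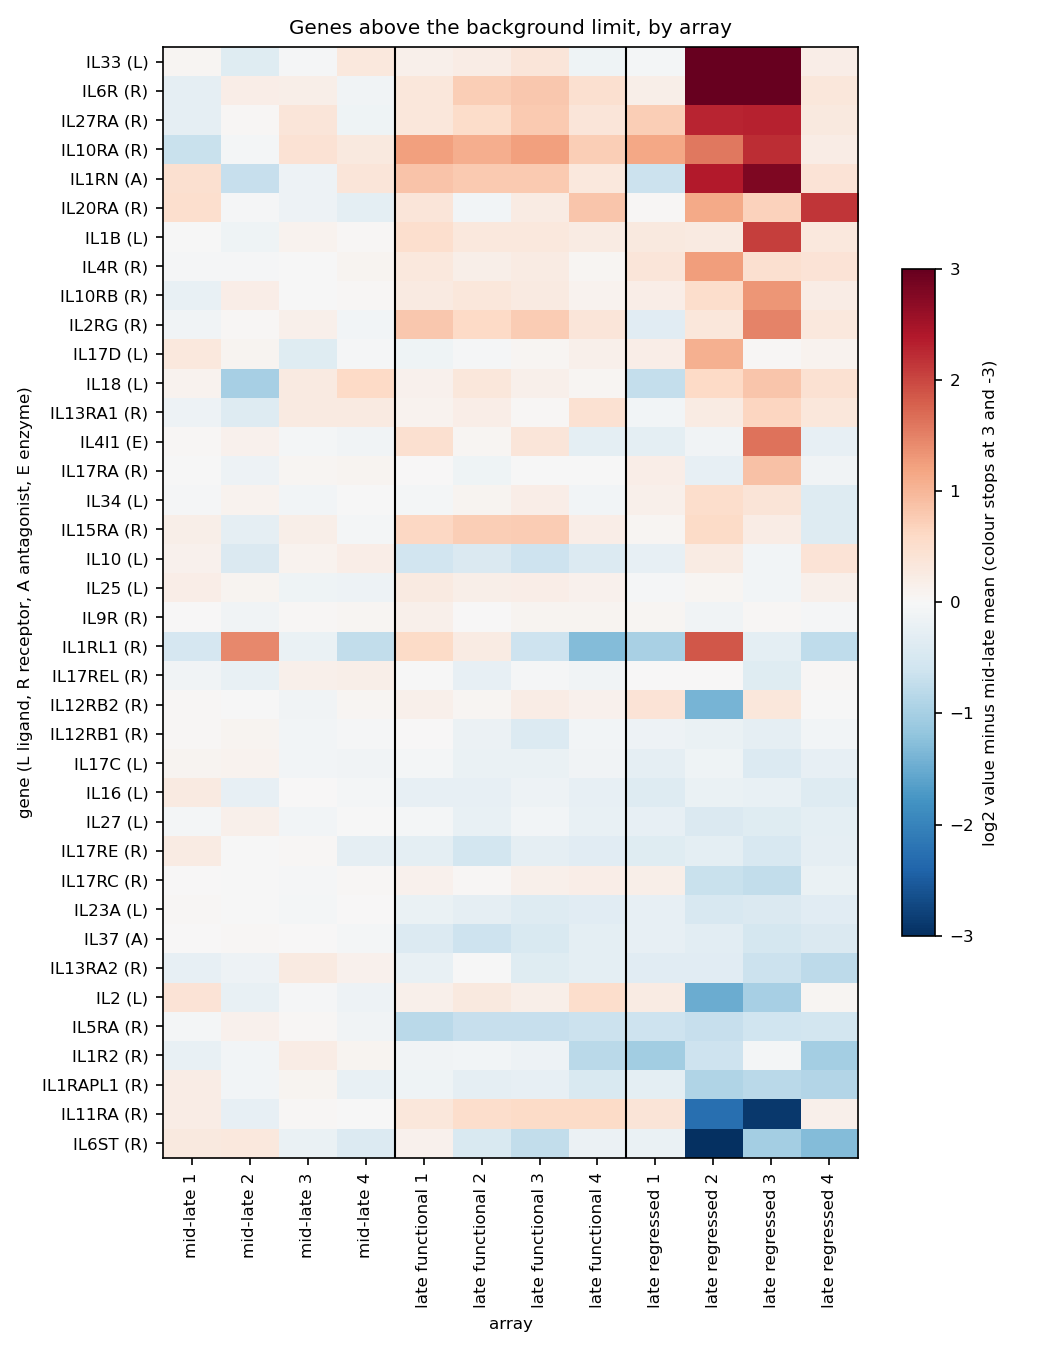
Log2 value minus the mid-late mean for the 38 interleukin genes above the background limit (rows, with role) in the 12 arrays (columns), ordered by the late regressed minus mid-late difference; the colour stops at 3 and -3. Late regressed arrays 2 and 3 carry the strongest colours, from IL33 and IL6R at the top to IL11RA and IL6ST at the bottom, and IL10RA is raised in all 4 late functional arrays.

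The genes downstream of these receptors were taken from lists of pathway members. Of 15 measured genes of IL-1 family signal transduction, 2 rose and 1 fell from the mid-late to the late regressed group, with a median difference of 0.25 against -0.02 over all genes. Among all genes, 7.6% were called higher and 5.51% lower in this comparison. NFKBIZ, an NF-kappa-B cofactor induced by IL-1, rose by 1.46 (SE 0.34, adjusted p = 0.0263) and IKBKB, a kinase that releases NF-kappa-B, by 0.87 (SE 0.17, adjusted p = 0.0152). IRAK1, the receptor-proximal kinase, differed by -0.57 (SE 0.16, adjusted p = 0.0459). IKBKB was called in each fit without 1 array. NFKBIZ lost its call without mid-late array 1, 2 or 3 or late regressed array 2 or 3 (0.0538 to 0.0726), and IRAK1 was called only without mid-late array 2 or late regressed array 1 or 2. Averaged over its probe sets, NFKBIZ differed by 0.95 and was not called (adjusted p = 0.0936), and IKBKB differed by 0.55 and was called (0.0269). IRAK1 was not called with arrays centred on their medians (-0.53, 0.0562). Without late regressed arrays 2 and 3 none of these was called, with differences of 1.03, 0.56 and -0.48.

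Of 8 measured JAK kinases and STAT factors, 2 rose and none fell, with a median of 0.09. The called shares over all genes were 7.6% higher and 5.51% lower. STAT6, the factor activated through IL4R, rose by 0.83 (SE 0.13, adjusted p = 0.00749), from 7.92 ± 0.17 in the mid-late to 8.75 ± 0.20 in the late regressed group, with 8.50 ± 0.20 in the late functional group. STAT5B, used by the common gamma chain receptors, rose by 0.54 (SE 0.14, adjusted p = 0.0348). STAT6 was called in each fit without 1 array and, at 0.73, without late regressed arrays 2 and 3 (adjusted p = 0.0382), where STAT5B was also called at 0.68 (adjusted p = 0.0414). Averaging the probe sets of a gene ended both calls, at 0.40 for STAT6 (adjusted p = 0.159) and 0.27 for STAT5B (0.0771), and renewed quantile normalization ended that of STAT5B (0.43, 0.0705). STAT5B was not called without mid-late array 1, 2 or 3, late functional array 1 or late regressed array 1, 3 or 4 (0.051 to 0.0848).

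Of 12 measured inhibitors of cytokine signalling, 1 fell and none rose, with a median of 0.06. Over all genes, 5.51% were called lower and 7.6% higher. PTPN1, a phosphatase that acts on JAK kinases, differed by -0.62 (SE 0.16, adjusted p = 0.0338). Averaged over its probe sets, it differed by -0.41 (adjusted p = 0.0495). Its call was lost without any one mid-late array (0.0633 to 0.0796), and without late regressed arrays 2 and 3 the difference was -0.43 (adjusted p = 0.0611). Of 10 measured genes of the inflammasome and IL-1 processing, limma called none and 2 had an unadjusted p below 0.05, both higher, where 18.4% of all genes were higher and 17.4% lower by that measure. PYCARD, the inflammasome adaptor, gave a difference of 1.91 (adjusted p = 0.0755), or 0.55 without late regressed arrays 2 and 3. PANX1, a membrane channel that was near background in all groups, gave 0.88 (adjusted p = 0.117). PYCARD passed the threshold without late regressed array 1 (0.0412) or 4 (0.0267), and PANX1 without array 1 (0.032). Of 19 related cytokines and receptors without an IL symbol none was called, and 1 higher and 3 lower had an unadjusted p below 0.05. The smallest p-values were those of CLCF1, near background (-0.27, adjusted p = 0.0591), and CRLF3 (0.50, adjusted p = 0.117, or 0.0311 without late regressed array 1). In the other comparisons none of the 64 measured genes of these 5 lists was called. Over all genes, 0.00708% were called for late regressed against late functional and 1.17% for late functional against mid-late. At an unadjusted p below 0.05 the listed genes gave 3 higher and 5 lower for late regressed against late functional. By that measure 8.34% of all genes were higher and 7.78% lower. For late functional against mid-late the listed genes gave 6 higher and 3 lower, where 9.64% of all genes were higher and 10.5% lower.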

How the data were processed

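RNA of 12 corpora lutea was hybridised singly to 12 Affymetrix rhesus arrays with biotin label. The deposited table holds log2 values made by the authors with RMA, per the submitters' processing notes; their span over the arrays fits a log2 scale. RMA settings, batches and scan dates were not given in the sources used here. Of 52865 probe sets, 158 array controls were left out. The platform annotation gave 1 symbol for 24956 of the 52707 tested, several for 361 and none for 27390. All 72 interleukin symbols matched the RefSeq table (T2T-MMU8v2.0) by Entrez ID. No sequence or coordinate was used.

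All 12 arrays were fitted with 1 mean per group and no covariate in limma 3.58.1 (R 4.3.3; lmFit, eBayes), with Benjamini-Hochberg adjustment over all tested probe sets within a comparison. The number of arrays limits the precision. Scripts were tested on simulated data. RMA usually gives all arrays nearly the same overall distribution, and a change in the total RNA of a cell would then not show.

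The members, lists and tests were chosen with earlier results of these data known. Named genes were all called members, a panel of 28 genes of which 24 were measured, the 5 ligands and the 5 receptors above background with the smallest p in each comparison, and for each pathway list up to 4 called genes, or the 2 of smallest p. Alternatives were a signal filter, scaling, the variance prior, the samples in the fit, array weights, covariates, a block for the replicate number, probe set choice, the background limit and leaving out arrays.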

Additional observations from a re-analysis of the deposited data

Results flagged for a closer look

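In groups of 4 arrays, a value was picked out where its gap to the nearest other array took up more of the group's range than Dixon's 95% critical value allows. Among 120 groups checked, 10 met this, and chance alone gives about 1 in 20. In the late regressed group these were IL1B in array 3 at 6.26 (others 4.45 to 4.50), IL4R in array 2 at 7.52 (6.63 to 6.75) and IL1RAPL1 in array 1 at 4.80 (4.19 to 4.28). The same group held the 3′ to 5′ control difference of array 2 at 2.52 (0.46 to 0.70) and the NC mean of array 3 at 3.48 (3.57 to 3.58). In the late functional group, array 4 was low for IL1R2 at 7.87 (8.53 to 8.60) and for IL1RN at 6.45 (6.91 to 7.0), and array 3 was high for IL16 at 5.71 (5.63 to 5.64). In the mid-late group, array 2 was low for IL10 at 6.99 (7.55 to 7.64) and array 4 high for IL7 at 3.84 (3.31 to 3.39). IL33 and IL6R, where 2 late regressed arrays stood apart together, are not picked out by a measure that looks for 1 array.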

How the results depend on the processing

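No called interleukin gene changed direction under any alternative run. For late regressed against mid-late, the 13 calls became 8 with only probe sets above the median signal, 4 with only those 2 groups in the fit, 0 with the NC mean as a covariate and 2 without late regressed arrays 2 and 3 together, and ran from 6 to 20 without 1 array. For late regressed against late functional, the count was 0 to 2 without 1 array. For late functional against mid-late, the 2 calls became 0 above the median signal, 0 with the NC mean as a covariate, 1 above the NC limit, 1 with arrays centred on their medians, 1 with the trended robust prior, 1 without _x_at and _s_at probe sets, 1 with the probe sets of each gene averaged, 11 with only those 2 groups, 9 with array weights, 10 without late regressed arrays 2 and 3, and 1 to 2 without 1 array. The 6 genes of the moderated F test became 3 above the median signal, 0 with the NC mean as a covariate and 1 to 11 without 1 array. Taking the 99th percentile of the NC probe sets as the limit put 49 genes near background, and taking their median put 9 there. The cause of these changes was not tested. The shares of all genes called under the same settings are not given here, so the changed counts do not set interleukin genes apart from other genes.

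The replicate number in the titles was not used to pair the arrays in the main fit. Correlations of same-numbered deviations ran from -0.12 to 0.30, with 3 of 12 over 0.1. Differently numbered arrays were not compared, so these values cannot settle whether the numbers pair the arrays. With the number as a replicate block, 11 genes were called for late regressed against mid-late, 0 for late regressed against late functional, 0 for late functional against mid-late and 4 by the F test. Signal near background limits 34 of the 72 genes, whose differences are between low values. Of the counts under all alternative settings, 61 stayed within 1.5 times the value given in the text and 38 did not. A count of 0 that stayed at 0 was taken as unchanged.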
